A study of Mus musculus with 12 samples.

Results

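The genes described here are 32 markers and transporters of the astroglia of the mouse cerebellum, its Bergmann glia and other astrocytes. They were chosen by name, and each is read from the brightest array row that the platform annotation gives to that gene alone. All 32 were found among the 22180 genes measured this way. Total RNA came from whole cerebellum of 12 adult mice, on 1 Affymetrix whole-transcript array per mouse. The groups are female mice without Ciz1 (source name KO Female Mouse, genotype Ciz1-/-), male mice without Ciz1 (KO Male Mouse, Ciz1-/-), wild-type females and wild-type males, with 3 mice each, called KO_female, KO_male, WT_female and WT_male below. The genotype field of both wild-type groups reads Ciz1+/-, while the extraction protocol gives Ciz1+/+ for the controls. No other allele and no treatment is given for any group. The protocol puts all mice at 10 months and the series design at 6 to 10 months. The series title calls the deficiency germline, which names no cell type, and the labels do not say how the allele was made. The study asked which genes differ in the cerebellum when Ciz1, a nuclear protein with roles in DNA replication and X inactivation, is missing.

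Bergmann glia are specialised astrocytes whose cell bodies lie beside those of Purkinje cells and whose fibres cross the molecular layer to the surface. With the velate astrocytes of the granule cell layer and the fibrous astrocytes of white matter they take up glutamate from synapses, turn it into glutamine, buffer potassium and water, and couple to each other through gap junctions. They keep expressing genes of neural stem cells, and Gfap and Vim are known to increase when astrocytes react to injury.

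Values are log2 of the authors' RMA intensities, and differences are KO minus WT on that log2 scale, so that a value below 0 means a lower level in KO. A level can be compared between arrays but not between genes. Ciz1 itself lay between 6.82 and 7.31 in the 6 KO arrays, against 8.70 to 8.90 in the 6 WT arrays, with no overlap. Calb1 of Purkinje cells and Gabra6 and Cbln3 of granule cells were in the brightest percent of genes on average (99.8, 99.6 and 99.7 as percentiles). Such a rank of brightness between genes is only a rough check of the tissue label. Of the 32 astroglial genes only Cyp4f15 and Id3 had a mean brightness below the median of all genes, at percentiles 30.4 and 47.0.

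One array stood apart within its group. In KO_male 2, 11 of the 32 genes lay more than 0.2 above the mean of the other KO_male arrays and 2 lay more than 0.2 below it, where 10.7% of all genes lay that far above and 10.6% that far below. The SD of the 32 deviations from the group means was 0.161 in KO_male 2, against 0.054 to 0.113 in the other 11 arrays, while over all genes it was 0.122 in KO_male 2 and 0.114 to 0.124 elsewhere. Results in males are therefore given with and without this array where it matters. No scan date or batch is given in the sources used here, so batches could not be examined. Separate mice are described in the protocol, but littermates or shared handling are not. The p-values set a difference against the spread between these mice, estimated with help from the other genes.

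**Figure D1:**
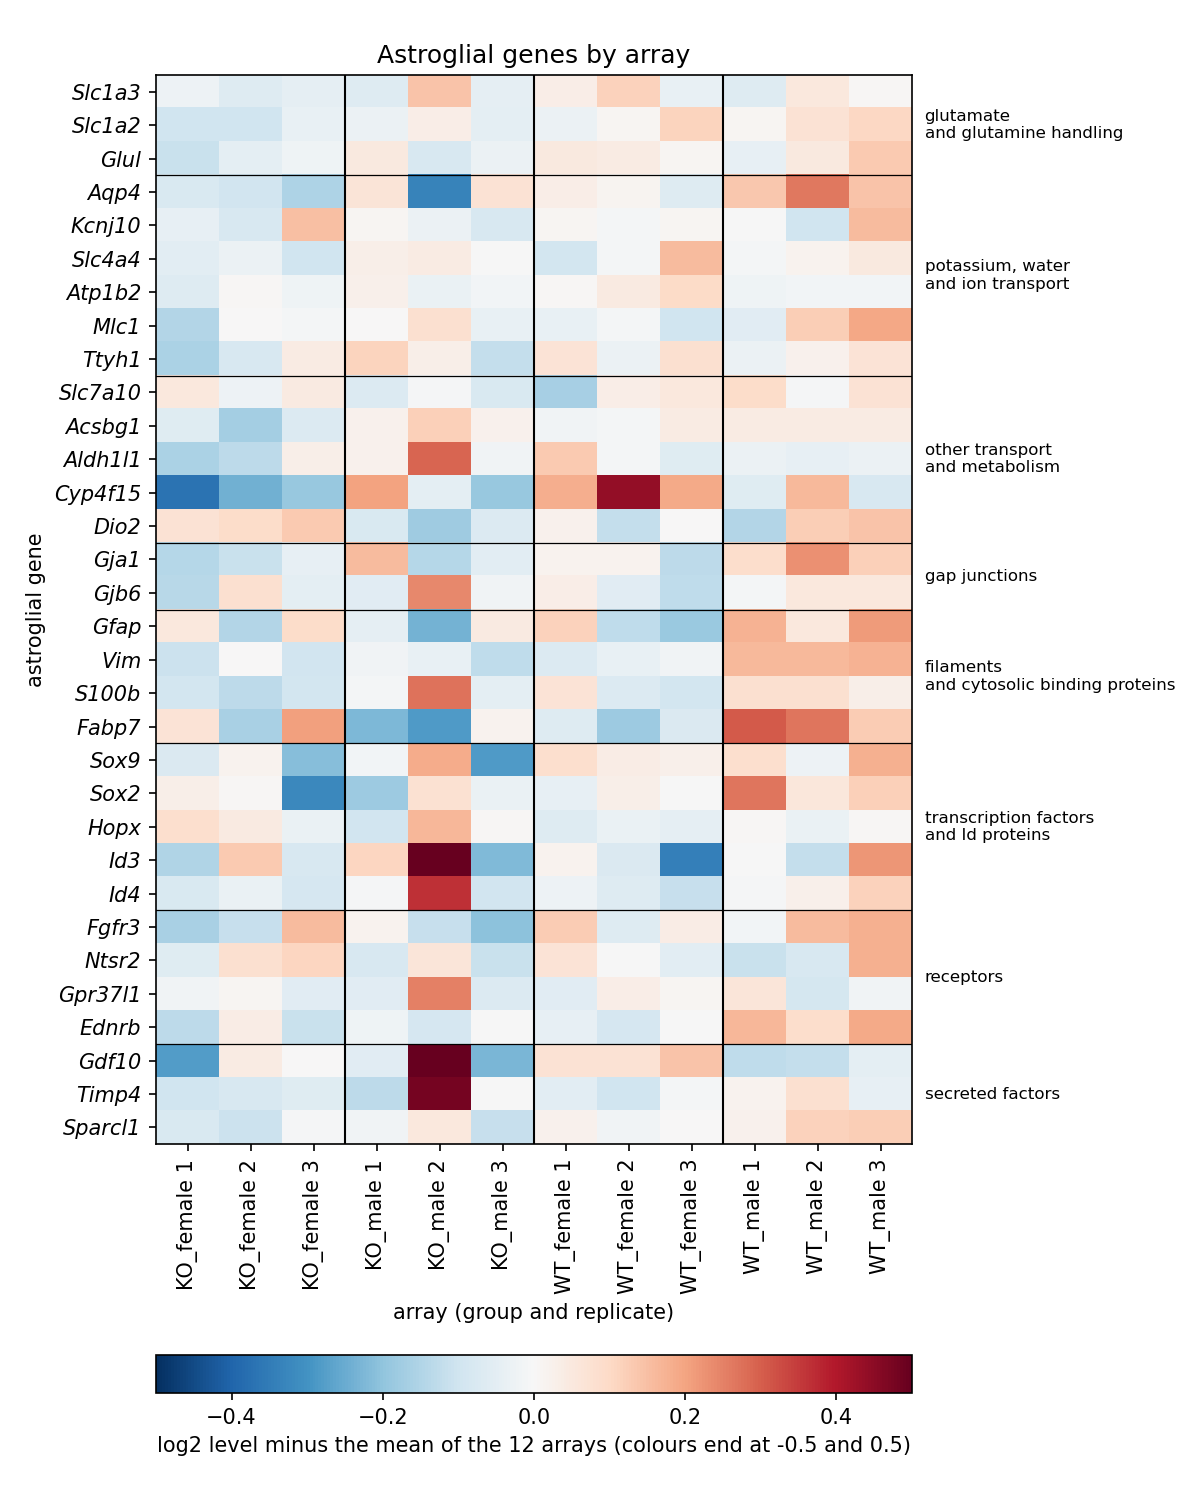
Level of each of the 32 astroglial genes (rows, grouped by role) on each of the 12 arrays (columns, KO groups left of WT groups), as log2 level minus the gene's mean over the 12 arrays; colours end at -0.5 and 0.5. Blue is frequent in the KO_female columns and red in the WT_male columns, and KO_male 2 holds both the highest values of Gdf10, Id3, Id4 and Timp4 and the lowest of Aqp4 and Gfap.

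Over both sexes, the astroglial genes of KO and WT cerebellum had similar mean levels. None of the 32 genes passed the test for genotype (limma over all 22180 genes, Benjamini-Hochberg adjusted p under 0.05), where 0.0225% of all genes passed. At an unadjusted p under 0.05, 5 of the 32 were lower in KO and 0 were higher, against 4.87% lower and 4.38% higher among all genes. The 5 were Cyp4f15, Vim, Aqp4, Ednrb and Slc1a2, with adjusted p between 0.350 and 0.522, and the count was 3 without WT_female 1, WT_male 2 or WT_male 3. Differences ran from -0.28 for Cyp4f15 to 0.10 for Id3, and the 95% intervals of all 32 lay between -0.45 and 0.36. Without KO_male 2 the difference of Id3 was 0.01. In whole tissue, fewer cells of a type and less RNA per cell cannot be told apart.

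Most of these small differences lay below 0. Of the 32 genes, 24 had a difference below 0, which is 75% against 50.4% of all genes, and their median was -0.038 against -0.001 over all genes. The median half-width of a single gene's 95% interval was 0.13. The 32 genes come from the same mice and are not independent of each other. No gene of the 32 had all 6 KO arrays on one side of all 6 WT arrays, where 0.23% of all genes were lower and 0.32% higher without overlap. The SD within groups was read as limma moderates it, drawn toward a value shared by all genes. This moderated SD had a median of 0.099 over the 32 genes and 0.109 over all genes. It ran from 0.064 for Atp1b2 to 0.203 for Id3.

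The glutamate and glutamine genes were lower in KO on average by 0.10 log2 units or less. Slc1a2, the transporter GLT-1 that clears most synaptic glutamate in forebrain, was at 8.95, 8.95 and 9.01 in KO_female and 9.02, 9.08 and 9.0 in KO_male, against 9.02, 9.06 and 9.16 in WT_female and 9.06, 9.12 and 9.15 in WT_male. The female groups did not overlap and the male groups did, and the difference was -0.10 (SE 0.04, limma adjusted p = 0.522). Slc1a3, or GLAST, the main glutamate transporter of Bergmann glia, averaged 11.57 ± 0.08 in KO and 11.60 ± 0.06 in WT (SD, n = 6 each), with a difference of -0.03 and a 95% interval of -0.14 to 0.07. Glul, the glutamine synthetase, was at 11.43, 11.49 and 11.52 in KO_female, against 11.59, 11.58 and 11.55 in WT_female. The KO_female arrays were all lower for Glul, the male arrays overlapped, and the difference over both sexes was -0.08 (95% interval -0.18 to 0.02). A second, dimmer row of Glul gave 0.01 over both sexes, with 0.21 in males and -0.18 in females.

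Among the genes for water, potassium and ions, Aqp4 had the largest difference. It encodes the water channel of astrocyte endfeet. Aqp4 was at 10.29, 10.27 and 10.21 in KO_female and 10.43, 10.03 and 10.44 in KO_male, against 10.40, 10.38 and 10.30 in WT_female and 10.50, 10.63 and 10.51 in WT_male. Every KO array was below every WT array of its own sex, and KO_male 2 was the lowest of all 12. In females the nearest values of Aqp4 were almost equal, at 10.29 and 10.30. Its difference was -0.17 (SE 0.07, limma adjusted p = 0.499), with -0.10 in females and -0.25 in males, and the value in males was -0.11 without KO_male 2. The other 5 were nearer to 0. Kcnj10, the inward rectifier Kir4.1 that takes up potassium, differed by -0.03 (95% interval -0.15 to 0.10). The bicarbonate cotransporter Slc4a4 differed by -0.04 (-0.14 to 0.06). Atp1b2, the glial beta subunit of the sodium pump, differed by -0.03 (-0.11 to 0.05), the narrowest interval of the 32. Mlc1, a membrane protein of endfeet, differed by -0.04 and the chloride channel Ttyh1 by -0.06, with intervals that spanned 0.

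Of the 5 genes for other transport and metabolism, Cyp4f15 had the largest difference of all 32 genes, with a value farther from 0 in females than in males. It was also the dimmest of the 32, at percentile 30.4. Cyp4f15, a cytochrome P450 of fatty acid oxidation, was at 5.61, 5.74 and 5.79 in KO_female, against 6.16, 6.42 and 6.17 in WT_female. Every KO_female array was lower. In males it was at 6.18, 5.93 and 5.79 in KO_male, against 5.92, 6.14 and 5.90 in WT_male, and those groups overlapped. The difference was -0.53 in females (SE 0.11, a KO over WT ratio of 0.69, limma adjusted p = 0.241) and -0.02 in males. The effect in females minus that in males was -0.52 (SE 0.16, limma unadjusted p = 0.00667, adjusted p = 0.990), so that the effect was not shown to differ between the sexes. WT_female was the high group and KO_female the low one, with both male groups between them.

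Aldh1l1, a folate enzyme widely used to mark astrocytes, differed by 0.01 over both sexes, with -0.11 in females and 0.13 in males. The 3 KO_male arrays, at 8.64, 8.91 and 8.60, were above the WT_male arrays at 8.59, 8.58 and 8.59, although the nearest values were almost equal, and the value in males was 0.03 without KO_male 2. Dio2, which makes active thyroid hormone, was at 7.66, 7.68 and 7.72 in KO_female, against 7.61, 7.47 and 7.59 in WT_female, and at 7.51, 7.41 and 7.52 in KO_male, against 7.44, 7.71 and 7.73 in WT_male. For Dio2 the female groups did not overlap and KO was higher, the male groups overlapped with KO lower on average, and the differences were 0.13 and -0.15 (difference between the sexes 0.28, limma unadjusted p = 0.0323, adjusted p = 0.998). The acyl-CoA synthetase Acsbg1 differed by -0.05, with KO_female below WT_female in every array, and Slc7a10, the serine and glycine transporter Asc-1, by -0.03. The second array row of Dio2 gave 0.11 in females and -0.04 in males.

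The gap junction genes differed from each other in direction only within their error. Gja1, connexin 43, averaged 10.58 ± 0.11 in KO and 10.69 ± 0.12 in WT (SD, n = 6 each), a difference of -0.11 (95% interval -0.24 to 0.01). Gjb6, connexin 30, differed by 0.02 (-0.12 to 0.15). In KO_male 2 the pair stood apart, with Gja1 at -0.20 and Gjb6 at 0.28 relative to the mean of the other KO_male arrays.

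Of the 4 genes for filaments and cytosolic binding proteins, Vim, Fabp7 and Gfap were lower in every KO_male array than in any WT_male array, and for Vim it was WT_male that stood apart. Vim, the intermediate filament vimentin, was at 11.12, 11.23 and 11.13 in KO_female and 11.21, 11.19 and 11.10 in KO_male, against 11.16, 11.19 and 11.21 in WT_female and 11.39, 11.39 and 11.40 in WT_male. The WT_male arrays lay above all of the other 9, which overlapped among themselves. The difference was -0.23 in males (SE 0.06, a ratio of 0.86, limma adjusted p = 0.719) and -0.03 in females. Without KO_male 2 the male value for Vim was -0.24. The second, dimmer row of Vim gave -0.12 in males and -0.08 in females.

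Fabp7, the brain fatty acid binding protein of radial glia and Bergmann glia, was at 10.17, 10.11 and 10.41 in KO_male, against 10.70, 10.66 and 10.52 in WT_male. In females it was at 10.46, 10.23 and 10.60 in KO_female, against 10.33, 10.21 and 10.32 in WT_female. The male groups did not overlap, with KO lower, and the female groups overlapped, with KO higher on average. The differences were -0.40 in males (SE 0.10, a ratio of 0.76, limma adjusted p = 0.719) and 0.14 in females (SE 0.10). Their difference, 0.54 (SE 0.15, limma unadjusted p = 0.00300, adjusted p = 0.990), was the largest between the sexes among the 32 genes with all arrays, next to -0.52 for Cyp4f15. Without KO_male 2 the order turned, with 0.49 for Fabp7 and -0.54 for Cyp4f15.

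Gfap, the filament protein that rises in reactive astrocytes, was at 9.18, 8.99 and 9.27 in KO_male, against 9.40, 9.28 and 9.44 in WT_male. The nearest male values were 9.27 and 9.28, and the female groups overlapped. Its difference was -0.23 in males (limma adjusted p = 0.902), or -0.15 without KO_male 2, and 0.07 in females. S100b, a calcium-binding protein of astroglia, differed by -0.03 over both sexes (95% interval -0.16 to 0.09).

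**Figure D2:**
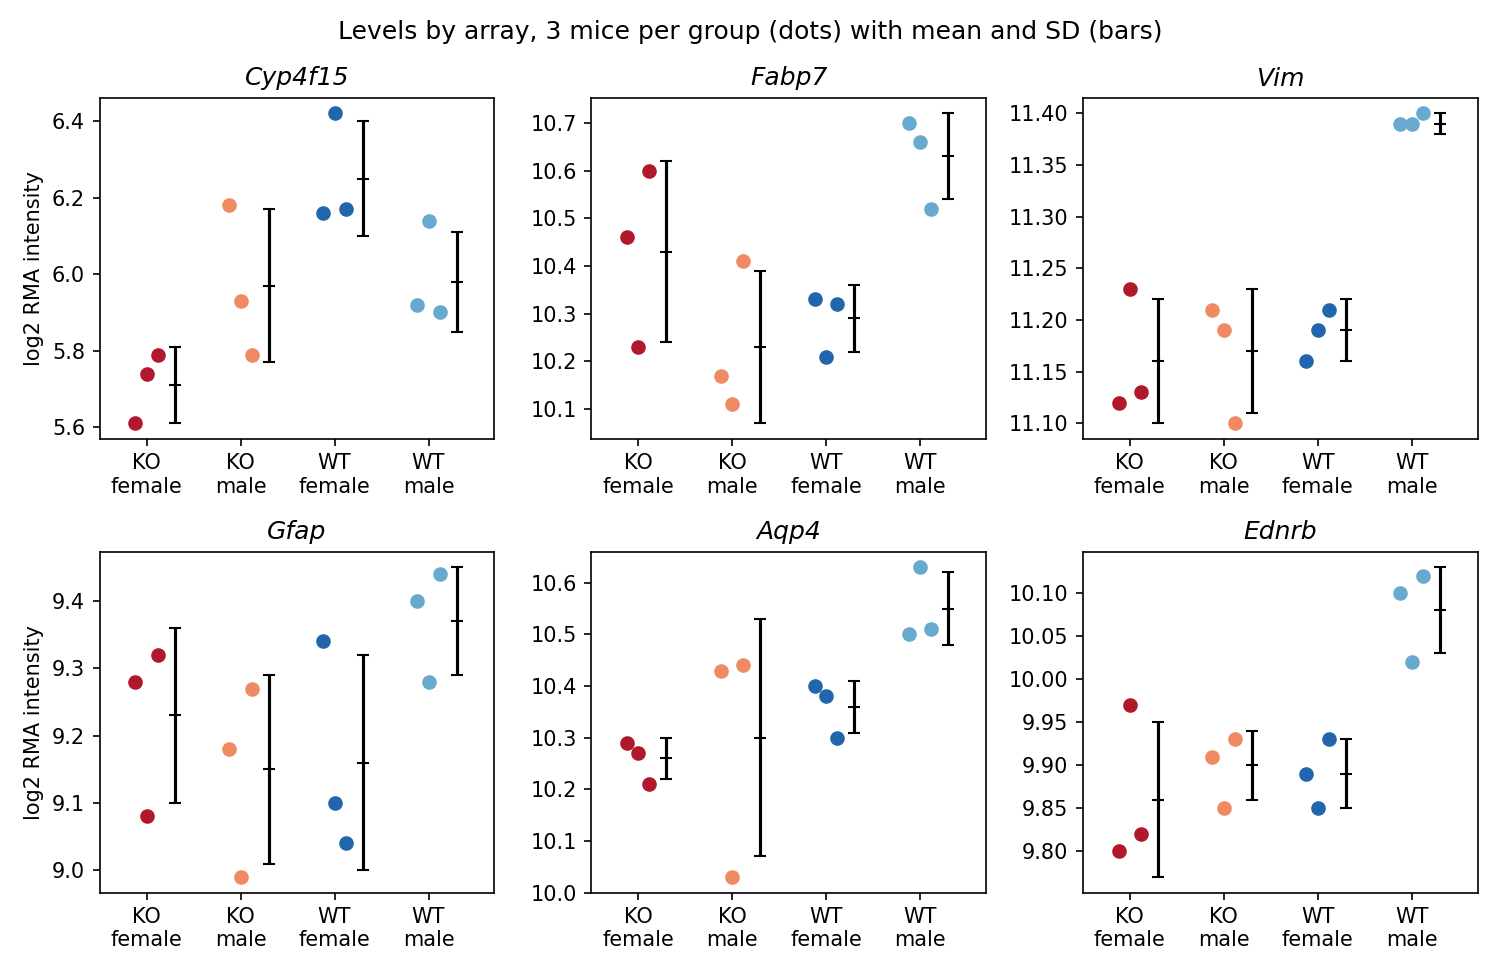
Levels of 6 astroglial genes on each array (dots, log2 RMA intensity on the vertical axis, 3 mice per group), with the mean and SD of each group as bars; the vertical axes do not start at 0 and differ between genes. For Vim and Ednrb the WT_male dots lie above all others, for Cyp4f15 the KO_female and WT_female dots are apart, and for Fabp7 KO_male lies below WT_male.

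The transcription factors and Id proteins had differences on both sides of 0. Sox9 and Sox2, which maintain glial and neural stem cell identity, differed by -0.12 (95% interval -0.29 to 0.04) and -0.14 (-0.30 to 0.01). Without KO_male 2 their values in males were -0.23 and -0.26, against -0.12 and -0.19 with it. Hopx, a homeodomain protein enriched in Bergmann glia, was higher in all 3 KO_female arrays, at 7.51, 7.47 and 7.39, against 7.36, 7.39 and 7.38 in WT_female, with 7.39 as the nearest value on both sides. Hopx differed by 0.06 over both sexes (-0.05 to 0.16). The inhibitors of basic helix-loop-helix factors Id3 and Id4 differed by 0.10 (-0.16 to 0.36) and 0.02 (-0.13 to 0.18). Without KO_male 2 these values were 0.01 and -0.05, and the male value of Id3 went from 0.10 to -0.09.

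Among the receptors, Ednrb, the endothelin B receptor, repeated the pattern seen for Vim. Ednrb was at 9.80, 9.97 and 9.82 in KO_female and 9.91, 9.85 and 9.93 in KO_male, against 9.89, 9.85 and 9.93 in WT_female and 10.10, 10.02 and 10.12 in WT_male. The 3 WT_male arrays were above the other 9, and the other 3 groups overlapped. The difference was -0.18 in males (SE 0.06, limma adjusted p = 0.874) and -0.02 in females. The growth factor receptor Fgfr3 differed by -0.14 (95% interval -0.29 to 0.01), with -0.21 in males. Ntsr2, a neurotensin receptor of astrocytes, differed by 0.00 (-0.13 to 0.13) and the orphan receptor Gpr37l1, abundant in Bergmann glia, by 0.02 (-0.11 to 0.15).

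Among the secreted factors, Gdf10 ranged over 0.82 between the 12 arrays, next to the 0.85 of Id3, the widest of the 32 genes. Gdf10, a BMP family ligand that marks Bergmann glia, was at 9.80, 10.12 and 10.08 in KO_female and 10.02, 10.61 and 9.85 in KO_male, against 10.15, 10.15 and 10.22 in WT_female and 9.95, 9.96 and 10.03 in WT_male. KO_male 2 was the highest of the 12 arrays and KO_female 1 the lowest, and the SD was 0.29 in KO and 0.11 in WT (n = 6 each). The mean was 10.08 in both genotypes. Timp4, an inhibitor of metalloproteinases, was at 10.54, 11.15 and 10.67 in KO_male, against 10.69, 10.75 and 10.63 in WT_male, while the 6 female arrays stood between 10.57 and 10.66. Sparcl1, or hevin, which astrocytes release at synapses, differed by -0.09 (95% interval -0.19 to 0.00).

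**Figure D3:**
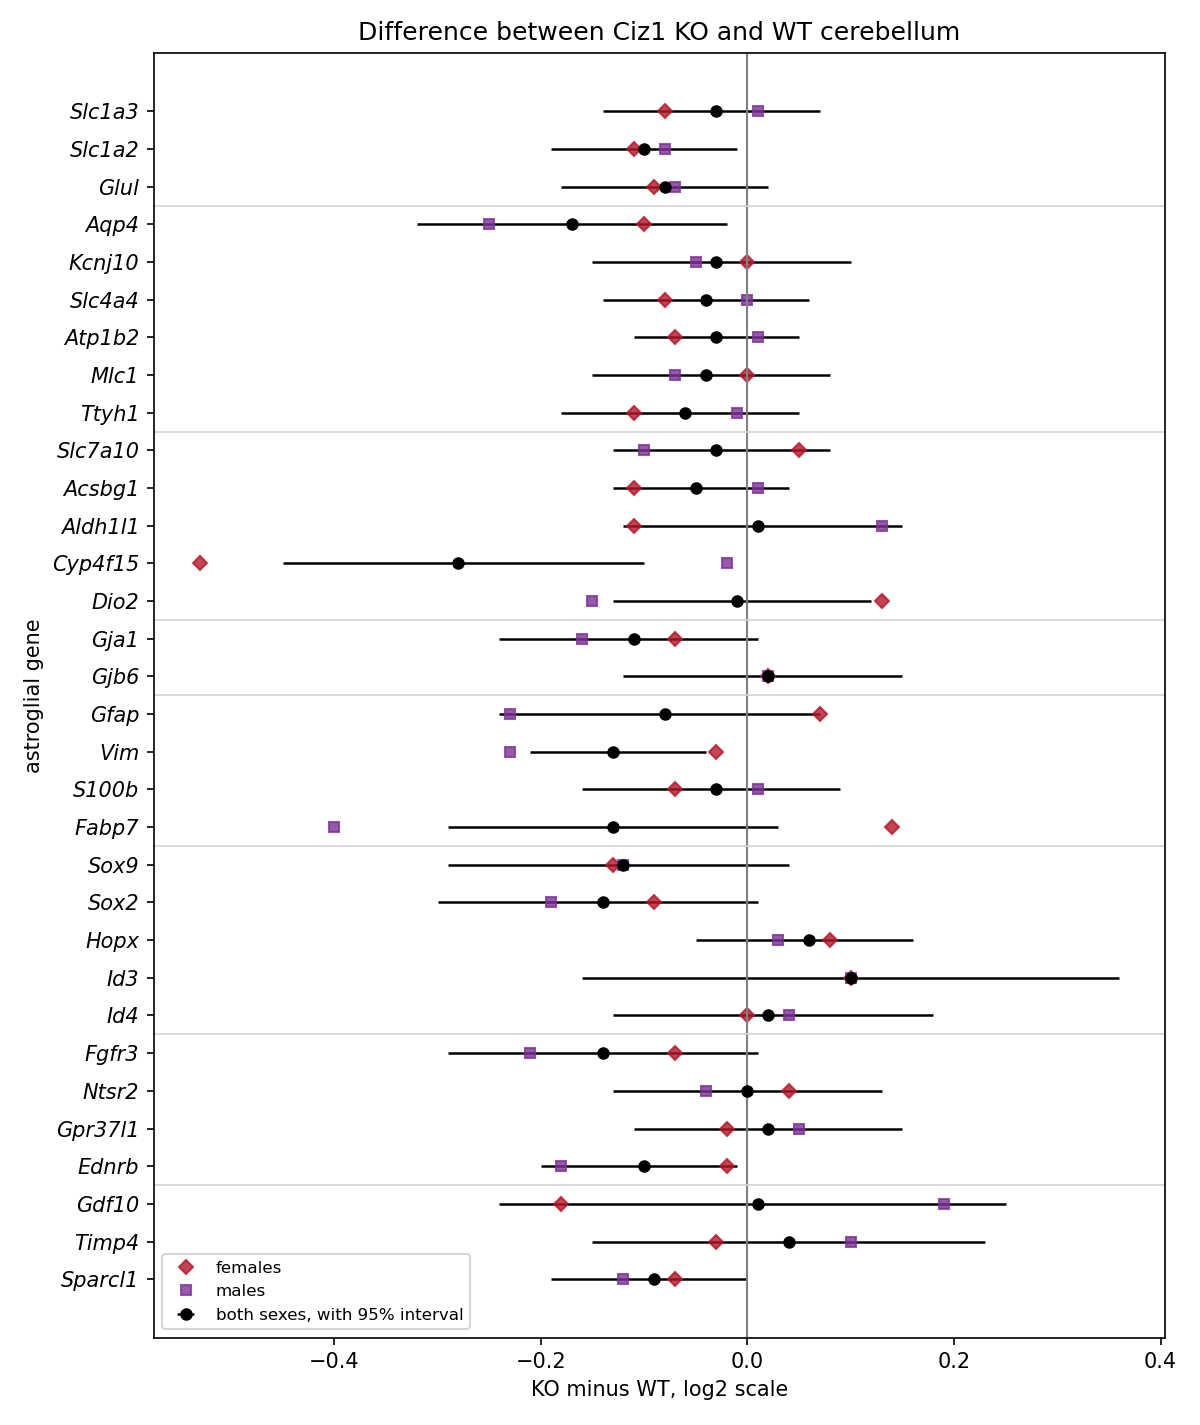
KO minus WT difference of each astroglial gene on the log2 scale (horizontal axis), for both sexes with its 95% interval (black), females (red diamonds) and males (purple squares). The 5 intervals that lie below 0 are those of Slc1a2, Aqp4, Cyp4f15, Vim and Ednrb, and the markers of the sexes are farthest apart for Cyp4f15 and Fabp7.

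Within one sex the counts were as follows. In males, 5 of 32 genes were lower in KO at an unadjusted p under 0.05 and 0 were higher (2.8% and 2.62% of all genes), and 0 passed after adjustment, as did 0.0225% of all genes. The 5 were Vim, Fabp7, Ednrb, Aqp4 and Gfap, with adjusted p from 0.719 to 0.902. The same 5 were the genes whose KO_male arrays were all below the WT_male arrays, which is 15.6% of the 32 against 5.64% of all genes, and Aldh1l1 alone was the reverse (3.12% against 4.66%). The sizes depended in part on KO_male 2. Without that array, Aqp4 was at -0.11 (SE 0.07) and Gfap at -0.15 (SE 0.10) in males, against -0.25 and -0.23 with it. Vim, Fabp7 and Ednrb were at -0.24, -0.34 and -0.16. Sox9, Sox2 and Sparcl1, not among the 5, went to -0.23 (SE 0.10), -0.26 (SE 0.11) and -0.15 (SE 0.06). In females only Cyp4f15 reached an unadjusted p under 0.05, lower in KO, where 3.98% of all genes were lower and 4.52% higher at that level, and 0 passed after adjustment against 0.0225% of all genes.

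Among the 32 genes, 7 had every KO_female array below every WT_female array, which is 21.9% against 7.41% of all genes. These 7 were Slc1a2, Glul, Aqp4, Acsbg1, Cyp4f15, Sox9 and Gdf10. Their nearest female values were 9.01 and 9.02 for Slc1a2 and 9.26 and 9.27 for Sox9, against 5.79 and 6.16 for Cyp4f15. Of these 7 only Cyp4f15 had an unadjusted p under 0.05 in females, which is 3.12% of the 32 against 3.98% of all genes. Dio2 and Hopx were the 2 with every KO_female array above (6.25% against 7.46%). Aqp4 was the one gene lower without overlap in both sexes, with 10.29 and 10.30 as the nearest female values. The median difference of the 32 genes was -0.068 in females and -0.045 in males, against 0.002 and -0.004 over all genes. In females 22 genes lay below 0 (49.4% of all genes) and in males 19 (51.9%). The male median depended on single arrays, at -0.090 without KO_male 2 and 0.002 without KO_male 3, and the female median was -0.033 without KO_female 1.

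The effects in the sexes were compared directly. For 4 of the 32 genes the difference between them had an unadjusted p under 0.05, against 4.82% of all genes, and 0 of the 32 and 0% of all genes passed after adjustment. Fabp7, Dio2 and Vim had a more positive difference in females, by 0.54, 0.28 and 0.19, and Cyp4f15 a more negative one, by -0.52. Averaged over genotype, 26 of the 32 genes were lower in females than in males, which is 81.2% against 51.3% of all genes, with a median of -0.051. At an unadjusted p under 0.05, 5 were lower in females and 0 were higher (4.18% and 3.75% of all genes). They were Vim (-0.11), Ednrb (-0.11), Acsbg1 (-0.10), S100b (-0.14) and Gja1 (-0.13). None passed after adjustment, with adjusted p of 0.600 or more, where 0.0361% of all genes did. Over the other lists described below, the share lower in females ran from 36.4% of 11 choroid plexus markers to 100% of 4 Purkinje cell markers. It was 82% of 50 further astroglial genes and 90% of 10 oligodendrocyte markers, so such a share was not particular to the 32.

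The genes lay farthest from their group means in KO_male 2. Against the mean of the other KO_male arrays, Gdf10 was 0.68 higher there, Id3 0.57, Timp4 0.55, Id4 0.42, Sox9 0.34, Gpr37l1 0.31, S100b 0.30, Aldh1l1 0.29 and Gjb6 0.28. Aqp4 differed by -0.40 there and Gfap by -0.23. Genes of one role did not go one way there: Fabp7, like Gdf10 a Bergmann glia gene, was at -0.17, the filament gene Vim at 0.04 and the endfoot gene Mlc1 at 0.09. KO_male 2 was the highest of the 12 arrays for 12 of the 32 genes (8.75% of all genes) and the lowest for 5 (8.25%). WT_male 3 was the highest for 10 genes (10.5% of all genes) and KO_female 1 the lowest for 10 (7.62%).

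Marker levels of other cell types also stood apart in that array. Against the other KO_male arrays, the oligodendrocyte markers averaged 8.88 in KO_male 2, with 9.22 and 9.07 in KO_male 1 and KO_male 3. The choroid plexus markers averaged 7.62, with 6.80 and 6.86 in those arrays, and Ttr was 3.14 above their mean. Over all 12 arrays, the mean level of the Purkinje cell markers was highest in KO_male 2, at 11.80 there against 11.60 to 11.75 elsewhere, and that of the microglia markers too, at 7.94 against 7.68 to 7.84. The granule cell markers were lowest there, at 11.26 against 11.32 to 11.47. The part of these in the astroglial values of KO_male 2 was not tested. Without this array the male differences of Gdf10, Timp4, Id4 and Gpr37l1 were -0.04, -0.08, -0.09 and -0.05, against 0.19, 0.10, 0.04 and 0.05 with it.

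**Figure D4:**
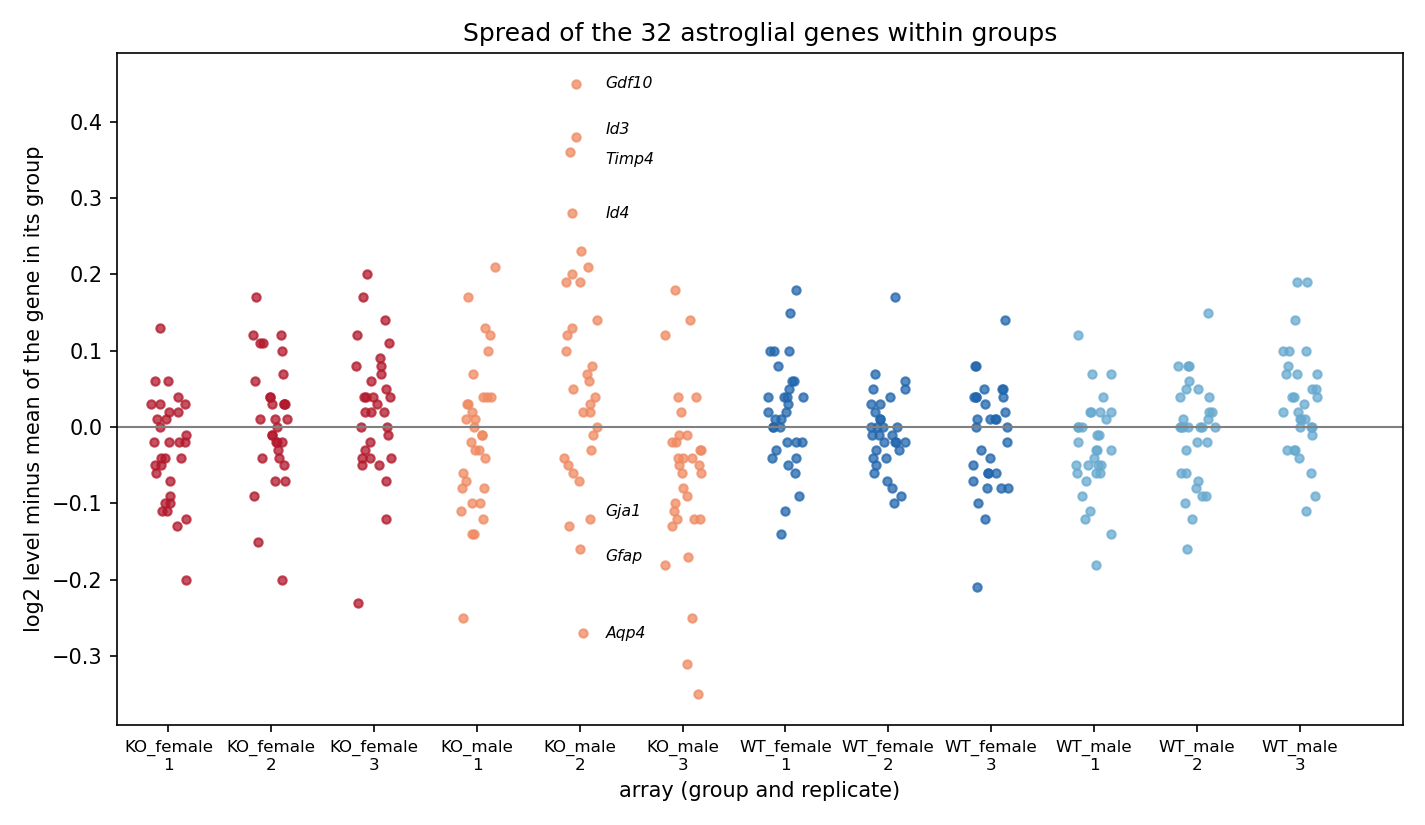
Deviation of each of the 32 astroglial genes (dots) from its group's mean on each array (horizontal axis, KO groups left of WT groups), in log2 units. The dots of KO_male 2 spread most, with Gdf10, Id3, Timp4 and Id4 at the top and Aqp4 lowest in that array.

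Promoter sequences are shown for 4 genes as examples: Gdf10 and Id4, high in KO_male 2, Gfap, low there, and Fabp7. For Fabp7 the KO minus WT difference was unlike in females and males at an unadjusted p under 0.05, and did not pass after adjustment. Each is the 250 bases before the gene's start, from RefSeq on build GRCm38.p6. Gdf10 is at chr14:33923337-33923586 (plus strand), Id4 at chr13:48260866-48261115 (plus), Gfap at chr11:102897201-102897450 (minus) and Fabp7 at chr10:57784673-57784922 (plus). Capitals mark matches on either strand to TTGGC, a motif of NFI factors, and to ACAAT, a core bound by SOX factors.
Gdf10: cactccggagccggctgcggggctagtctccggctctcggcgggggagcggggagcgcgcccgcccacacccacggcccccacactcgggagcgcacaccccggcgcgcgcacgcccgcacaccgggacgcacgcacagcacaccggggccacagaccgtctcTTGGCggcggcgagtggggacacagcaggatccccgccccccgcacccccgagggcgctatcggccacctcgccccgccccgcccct
Id4: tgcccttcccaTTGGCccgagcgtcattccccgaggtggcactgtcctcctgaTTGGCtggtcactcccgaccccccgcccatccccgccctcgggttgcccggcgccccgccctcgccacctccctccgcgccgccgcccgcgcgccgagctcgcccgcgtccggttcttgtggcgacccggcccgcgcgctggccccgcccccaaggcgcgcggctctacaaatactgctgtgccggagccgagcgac
Gfap: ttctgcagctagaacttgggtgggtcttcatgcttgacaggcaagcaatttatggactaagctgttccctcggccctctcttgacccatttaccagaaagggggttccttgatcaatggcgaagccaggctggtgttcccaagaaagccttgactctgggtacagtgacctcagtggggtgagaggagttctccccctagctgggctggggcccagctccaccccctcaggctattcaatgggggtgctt
Fabp7: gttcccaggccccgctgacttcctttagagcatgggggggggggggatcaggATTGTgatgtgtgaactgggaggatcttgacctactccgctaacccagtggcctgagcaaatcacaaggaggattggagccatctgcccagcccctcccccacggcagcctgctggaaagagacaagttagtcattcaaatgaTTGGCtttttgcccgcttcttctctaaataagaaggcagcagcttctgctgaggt

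Gdf10 and Id4 have windows rich in G and C (78.8% and 75.6%), while Gfap and Fabp7 have 55.6% and 54.8%. Id4 holds 2 NFI motifs, both overlapping a CCAAT box, Gdf10 holds 1 and Gfap none. Fabp7 holds 1 NFI motif, which overlaps a CCAAT box, and 1 SOX core. Windows were found for 28 of the 32 genes, with 31 windows in all since some genes have several starts, and Atp1b2, Aqp4, Sox9 and Sparcl1 had none in the table used. TTGGC on either strand was in 64.5% of the 31 windows and in 41.5% of all 32851 windows, ACAAT in 9.68% and 27.7%, and CCAAT, which can overlap TTGGC, in 58.1% and 33.8%. The windows of the 32 genes had a median G and C content of 56.8%, against 52.4% for all windows. These are matches of letters and were not tested.

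A list of further astroglial genes was read the same way. Of 50 measured genes, among them carriers, endfoot proteins, lipid carriers and Notch pathway genes, 0 passed in any comparison. The median difference was -0.008. At an unadjusted p under 0.05, 4 (8%) were lower and 2 were higher, against 4.87% lower and 4.38% higher among all genes. Those with the smallest p were Cbs, the enzyme that makes cystathionine, at -0.18 (SE 0.05), the receptor Gpr37 at -0.32 (SE 0.10) and the proteoglycan Cspg5 at -0.10 (SE 0.04), with limma adjusted p of 0.352, 0.411 and 0.484. Gpr37 is also a gene of oligodendrocytes.

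Genes that astrocytes are known to raise when they react were also measured. Of 26 measured genes 0 passed, and their median difference was 0.017. Lcn2, a secreted iron-binding protein, was at 6.39, 7.43 and 7.11 in KO_male, against 6.25, 6.11 and 6.66 in WT_male, while KO_female lay at 6.53 to 6.60 and WT_female at 6.21 to 6.65. KO_male 2 was again the highest array, the male groups overlapped, and the difference over both sexes was 0.37 (SE 0.16, limma adjusted p = 0.517). Emp1, a membrane protein, differed by -0.16 and the receptor S1pr3 by 0.14.

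The 3 shorter lists cover pathways that the 32 genes belong to. Of 12 Id and BMP response genes 0 passed, with a median of -0.008, and Bmpr2, Id1 and Smad9 differed by -0.10, 0.15 and 0.07. Of 6 genes that handle or answer to thyroid hormone 0 passed, with a median of -0.043 and 4 of the 6 below 0. Hr was at 0.13, Thrsp at 0.11 and Klf9 at -0.07. Of 8 partners of the glutamate cycle outside astroglia 0 passed, with a median of -0.076. At an unadjusted p under 0.05, 3 of them (37.5%) were lower, against 4.87% of all genes.

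Those 3 were Slc17a6, Glud1 and Slc38a2. Slc17a6, the vesicular glutamate transporter VGLUT2, was at 5.86, 5.95 and 7.08 in KO_female and 7.51, 6.71 and 6.17 in KO_male, against 7.55, 7.40 and 7.76 in WT_female and 7.07, 7.43 and 7.81 in WT_male. The female groups did not overlap, the male groups did, and the difference was -0.95 (SE 0.25, limma adjusted p = 0.318). The mitochondrial enzyme Glud1, which also works in astroglia, differed by -0.16 (SE 0.05), and the glutamine transporter Slc38a2 by -0.16 (SE 0.06), with adjusted p of 0.393 and 0.467.

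Markers of other cell types were set beside the astroglial genes, and 1 of them passed over both sexes. All 10 measured oligodendrocyte markers were lower in KO at an unadjusted p under 0.05, against 4.87% of all genes. Of these 10 the myelin gene Opalin passed (-0.45, limma adjusted p = 0.037), with Mal at -0.36 and Cldn11 at -0.28 next. In females alone 9 of the 10 were lower at that level (3.98% of all genes), and 1 passed at a limma adjusted p of 0.0144. In males alone 0 of the 10 reached that level (2.8% of all genes were lower). In females their mean level was 8.78 to 8.85 without Ciz1, against 9.15 to 9.27 in WT_female. In males it was 8.88 to 9.22 without Ciz1, against 9.11 to 9.28 in WT_male. Their part in the astroglial differences was not tested. All 11 choroid plexus markers had a difference below 0, with Ttr between 7.59 and 13.33 over the arrays, Slco1a5 at -0.26, Folr1 at -0.36 and Otx2 at -0.28. The mean of the 11 ranged over 6.60 to 7.82 in KO females, against 6.84 to 8.13 in WT females, and over 6.80 to 7.62 in KO males, against 7.10 to 8.18 in WT males. With that level as a covariate no difference of the 32 genes moved by more than 0.07. Such a move is not small beside their median difference of -0.038 over both sexes. Over both sexes Gfap went from -0.08 to -0.14 and Gdf10 from 0.01 to 0.07. Among the markers of microglia, C1qb, P2ry12 and Tmem119 differed by 0.17, 0.09 and -0.07, and among those of vessels and meninges Col1a2, Rgs5 and Flt1 by -0.11, 0.11 and 0.07. Ppp1r17, Pvalb and Car8 of Purkinje cells differed by 0.11, 0.05 and 0.03, and Etv1, Cbln1 and Cbln3 of granule cells by 0.15, -0.05 and -0.04. None of these passed.

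Genes most like the astroglial mean were sought over the 12 arrays after each gene was centred on its group means. The 10 highest were Fbln5, Serf1, Tusc3, Gstm1, Tmbim6, Prdm8, Ssb, Sdc4, Pde7b and Styxl1, with Pearson r from 0.93 to 0.98 over 12 arrays. Without KO_male 2 their r was 0.82 to 0.95 over 11 arrays. Fbln5, an extracellular matrix protein, had the highest r and was 0.68 above its group mean in KO_male 2. With this many genes and so few mice such values are a description only. The genotype differences of the 10 ran from -0.04 for Ssb to 0.12 for Gstm1, and 0 passed.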

How the data were processed

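Per the labels' protocols, the authors made RMA values for core exons with the Affymetrix Expression Console, and the submitters' processing notes also list Transcriptome Analysis Console 3.0. The deposited values are intensities on a linear scale, with array medians of 96.5 to 98.7. They were turned into log2 here without a pseudocount and were not normalized again. Which test the authors ran, and on which build the array was annotated, is not stated in the labels. RMA includes quantile normalization, which can hide a shift shared by most genes.

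Of 41345 rows, 23521 had 1 gene symbol, 1814 had several and 16010 had none. The brightest row with 1 symbol was used for each of 22180 genes. Of the 32 genes, Dio2, Glul and Vim had a second row.

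With limma 3.58.1 in R 4.3.3, 1 mean per group (4 in all) and a common spread over 12 arrays were estimated. The contrasts were KO against WT over both sexes, in males and in females, the effect in females minus that in males, and the sexes over both genotypes (females minus males). All tests are two-sided, adjusted p-values are Benjamini-Hochberg over all genes, and the threshold is 0.05. The fit was checked on simulated data. No filter on brightness was used, and the number of arrays limits the precision. Replicates are numbered by accession order, which only names an array.

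The genes, the lists and the rule for named genes (the 3 with the smallest p for KO against WT over both sexes in each list used, any gene that passed, Ciz1 and Ttr) were chosen with earlier results of these data known. Lists of microglia, vascular and meningeal, Purkinje and granule cell markers had 0 genes passing. Their median differences over both sexes were 0.035, 0.026, 0.042 and -0.014. Calb1 and Gabra6 fall outside the rule, as tissue checks. Array KO_male 2, and the promoters shown, were singled out after the values were seen.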

Additional observations from a re-analysis of the deposited data

How the results depend on the processing

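None of the 32 genes passed in any contrast fitted under any alternative run: an intensity trend, only genes above the median brightness (which leaves out 2 of the 32), further quantile normalization, the mean of all rows of a gene, array weights, the choroid plexus covariate, the compared groups alone, and each array left out in turn. The compared groups alone were fitted only for the 3 KO minus WT contrasts, and over both sexes that fit left sex out. All other alternatives covered the 5 contrasts. The lowest adjusted p of any of the 32 genes was 0.107. Of 2966 values of single genes under these alternatives, 83 lay on the other side of 0 from the reported value, all for genes with an unadjusted p of 0.05 or more. Leaving out single arrays put the median difference of the 32 genes between -0.065 and -0.030 over both sexes, -0.090 and 0.002 in males, -0.068 and -0.033 in females, -0.037 and 0.072 for the difference between the sexes' effects, and -0.061 and -0.037 for females against males. The count of genes lower at an unadjusted p under 0.05 over both sexes was 3 to 7. It was 3 without WT_female 1, WT_male 2 or WT_male 3, a count chosen after seeing the data. In males the count was 4 to 7. With all arrays kept, 4.87% of all genes were lower at that level over both sexes and 2.8% in males. No paired analysis was possible because the labels give no replicate numbers that groups share. With 3 mice per group, a difference of 0.2 in 1 sex is near the 0.18 that was the median half-width of its interval.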
